A study of Mus musculus with 16 samples.

Results

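The genes followed here set how readily a cell dies: Mcl1, Bcl2, Bcl2l1, Bcl2l11, Bid, Birc2, Birc3, Cflar, Xiap and Gadd45b. They were chosen with earlier results of these data known. Their probes were taken by name, as every probe on the array whose gene name in the scanner files was one of these. That gave 17 probes for 10 genes, out of 55681 probes with 34836 names, and all 17 were among the 21597 probes bright enough to be tested. Of the genes, 5 had more than 1 probe, and probes of the same gene did not always move together, so each probe was described by itself. A probe is called here by its gene and by the base of the transcript at which the files place its start (Mcl1 at base 3240).

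The cells were RAW 264.7, a mouse macrophage-like line, in 0.5% serum. They received DMSO, the vehicle, or 20 µM cordycepin in DMSO, and 60 min later 1 µg/ml LPS or no LPS for a further 60 min, so that every well had 120 min with DMSO or cordycepin. Cordycepin is 3′-deoxyadenosine, an adenosine analogue that stops the growth of an RNA chain, and LPS is a bacterial wall component that activates macrophages through Toll-like receptor 4. The 4 conditions (DMSO, cordycepin, LPS+DMSO and LPS+cordycepin) had 4 replicates each, 1 per culture day, and all groups are cultures of a single line at a single time point.

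The Bcl2 family decides whether the outer mitochondrial membrane is breached in apoptosis. Mcl1, Bcl2 and Bcl2l1 (Bcl-xL) hold the membrane intact, while BH3-only proteins such as Bcl2l11 (Bim) and Bid oppose them. Downstream, inhibitor of apoptosis proteins act on caspases or, for Birc2 and Birc3, on ubiquitination in TNF receptor signalling, and Cflar (c-FLIP) blocks the activation of caspase-8 at death receptors. Several survival genes are known targets of NF-κB in activated macrophages, and Gadd45b is a stress-response gene with the same link.

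On the 16 arrays 37.1% to 51.2% of the spots were well above background and none of the 17 probes was saturated. The arrays of replicates 1 and 2 were on slide 1, with 21999 to 26055 such spots, and those of replicates 3 and 4 on slide 2, with 27151 to 30362, and each slide held all conditions. Of 9 macrophage markers on the array, 8 were well above background on all 16 arrays, including Cd68, Csf1r and Cd14, and Mrc1 was on 11. Among T cell markers Cd3e and Cd4 were above background on all arrays too, Cd3d was on 3 and Cd8a on 1. B cell Cd79a was on 12 arrays and Ms4a1 on none. Of fibroblast and epithelial markers, Col1a2 was on 3 arrays, Col1a1 and Epcam on 1 each, and Pdgfra, Krt8 and Cdh1 on none. The arrays measure RNA of a whole well, so fewer cells with a transcript and less of it per cell cannot be told apart.

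LPS raised 5 of the 10 genes within 60 min and lowered none. Mcl1, Bcl2l11, Birc3, Cflar and Gadd45b rose by 2.47-fold to 5.08-fold over 10 probes, and thus genes that protect from apoptosis and the death-promoting Bcl2l11 were among them. The 10 probes of 17 (58.8%) that rose at least 2-fold at an adjusted p under 0.05 compare with 2.15% of all probes tested. Since the genes were chosen with earlier results of these data known, such shares are not an independent test. Without Bcl2l11 at base 450, which passed the filter on dim probes only through the LPS conditions, 9 of 16 (56.2%) rose, against 1.70% of the 21039 probes that passed in a condition without LPS. With the normexp background 8 probes were called, and with scaling to the spiked-in control RNA 7, where Mcl1 at base 3240, Birc3 at base 2559 and Cflar at base 1940 gave 1.21, 1.26 and 1.22 (adjusted p = 0.0703, 0.0576 and 0.0574). In the scaling used here the same 10 rose when no minimum fold was set, against 5.03% of all probes. None of the 17 fell, where 9.39% of all probes did. The median change was 1.32 on the log2 scale over the 17 probes and -0.04 over all probes. The other 7 probes, for Bcl2, Bcl2l1, Bid, Birc2, Xiap and 1 of the 4 Cflar probes, lay between -0.28 and 0.27.

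**Figure D1:**
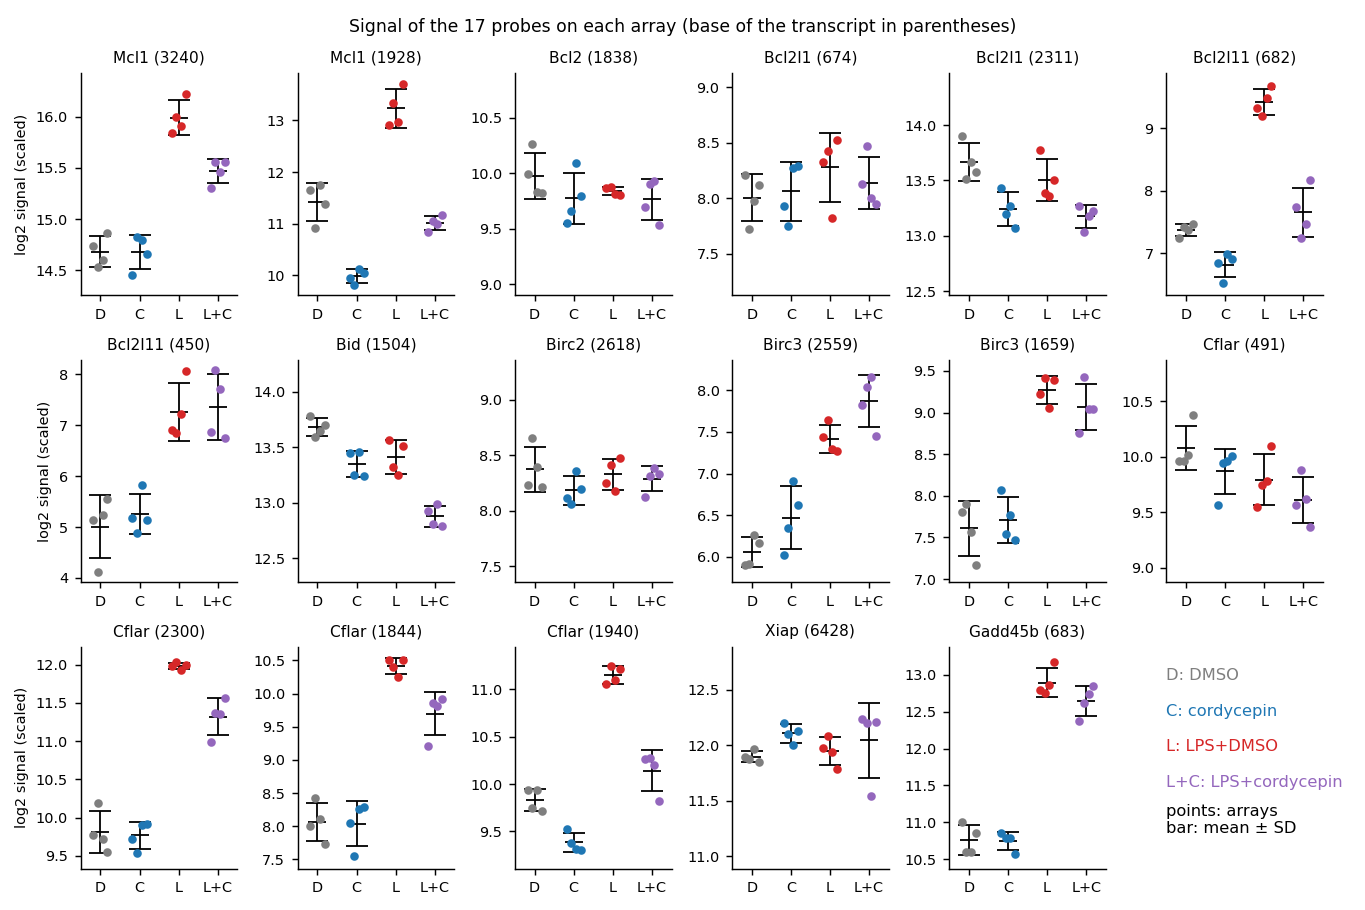
Scaled log2 signal (vertical axis, its own range for each probe) on the 4 arrays of each condition (horizontal axis), 1 panel for each of the 17 probes, with the transcript base of the probe in parentheses. Points are arrays in the order of replicates 1 to 4, and bars are the mean ± SD. For Gadd45b all LPS+DMSO arrays (12.76 to 13.18) lie above all DMSO arrays (10.59 to 11.01). For Mcl1 at base 1928 all cordycepin arrays (9.82 to 10.12) lie below all DMSO arrays (10.92 to 11.74).

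Without LPS, cordycepin lowered 5 probes of 5 genes and raised none. The changes were small except for Mcl1 at base 1928, which fell 2.71-fold and was the only probe past 2-fold (1.08% of all probes fell and 5.55% rose that far). Bcl2l1 at base 2311, Bcl2l11 at base 682, Bid and Cflar at base 1940 fell by 0.33 to 0.56 on the log2 scale. Of all probes 7.05% fell and 9.71% rose by an adjusted p below 0.05, whatever the fold. The median change was -0.04 over the 17 probes and 0.04 over all probes. Each of the 4 smaller calls lost significance in at least 1 fit without an array or within a slide, with its direction kept, and with spike-in scaling only Mcl1 at base 1928 was called.

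In LPS-treated cells cordycepin lowered 7 probes of 4 genes and raised none. Mcl1 at base 1928 fell 4.66-fold, Bcl2l11 at base 682 fell 3.40-fold and Cflar at base 1940 fell 2.01-fold. Those 3 compare with 1.61% of all probes that fell 2-fold, and the 7 with 8.18% that fell by any size. Of all probes 7.11% rose 2-fold and 12.0% rose by any size. The other 4 calls were the Mcl1 probe at base 3240, the Cflar probes at bases 2300 and 1844, and Bid, which fell by 0.52 to 0.72. The median change was -0.25 over the 17 probes and 0.03 over all probes. Birc3 and Gadd45b, which LPS had raised, were not called lower. With spike-in scaling the 3 probes past 2-fold were still called and the other 4 were not. There Mcl1 at base 3240 gave -0.68 (adjusted p = 0.535), Bid -0.69 (adjusted p = 0.504), and Cflar at bases 2300 and 1844 gave -0.82 and -0.87 (adjusted p = 0.328 and 0.293).

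**Figure D2:**
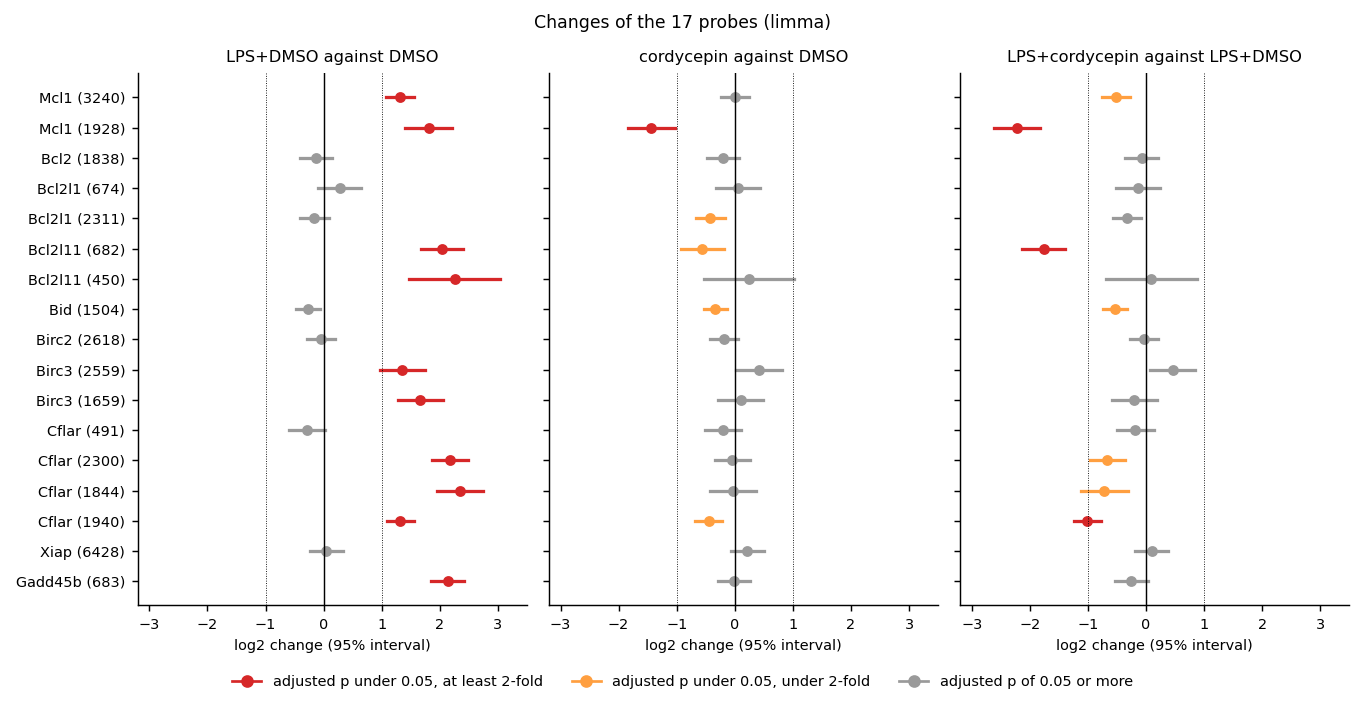
Log2 change (horizontal axis) with its 95% interval for the 17 probes (rows) in LPS+DMSO against DMSO, in cordycepin against DMSO and in LPS+cordycepin against LPS+DMSO. Red marks an adjusted p under 0.05 with at least 2-fold change, orange an adjusted p under 0.05 below 2-fold and grey the rest, and dotted lines mark 2-fold. LPS moved 10 probes up, and in LPS-treated cells cordycepin moved Mcl1 at base 1928 by -2.22 and Mcl1 at base 3240 by -0.52.

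Mcl1 is a short-lived survival protein of the Bcl2 family. Its 2 probes lie in the same RefSeq transcript, NM_008562, at bases 1928 and 3240 (mm9 chr3:95465543-95465602 and chr3:95466855-95466914, plus strand). The probe at base 3240 read 14.73, 14.53, 14.60 and 14.87 in DMSO and 15.84, 15.997, 15.90 and 16.22 in LPS+DMSO, in the order of replicates 1 to 4. It read 14.46, 14.82, 14.79 and 14.65 in cordycepin and 15.30, 15.56, 15.46 and 15.56 in LPS+cordycepin. The DMSO and cordycepin arrays overlapped, and the LPS+cordycepin arrays lay between those of DMSO and those of LPS+DMSO without overlap with either. The LPS change was 1.31 (SE 0.11, adjusted p = 9.36e-07). The change with cordycepin was -0.0014 (95% interval -0.24 to 0.24, adjusted p = 0.995) without LPS and -0.52 (SE 0.11, adjusted p = 0.00314) with LPS.

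The Mcl1 probe at base 1928 went lower with cordycepin in both settings. It read 11.66, 10.92, 11.74 and 11.37 in DMSO, and 9.94, 9.82, 10.12 and 10.05 in cordycepin. With LPS it read 12.91, 13.34, 12.96 and 13.71 in LPS+DMSO, and 10.83, 11.05, 11.00 and 11.17 in LPS+cordycepin. Cordycepin arrays were below their vehicle arrays with no overlap, and all LPS+cordycepin arrays were below DMSO replicates 1, 3 and 4. With cordycepin this probe changed by -1.44 (SE 0.19, adjusted p = 4.40e-05) without LPS and -2.22 (SE 0.19, adjusted p = 4.05e-07) with LPS. Within slide 1 and slide 2 the latter was -2.19 and -2.25. LPS raised this probe by 1.81 in DMSO (adjusted p = 6.54e-06) and by 1.03 in cordycepin (adjusted p = 0.00216).

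Neither Bcl2 nor Bcl2l1 was called with LPS. Bcl2 had 1 probe (NM_177410, chr1:108608970-108609029, minus strand), with all 16 arrays between 9.54 and 10.27 and no call in any comparison. Its LPS change was -0.14 (95% interval -0.42 to 0.14). Bcl2l1 at base 2311 (NM_009743, chr2:152606404-152606463, minus strand) read 13.90, 13.51, 13.67 and 13.58 in DMSO and 13.43, 13.20, 13.27 and 13.07 in cordycepin, which did not overlap. It fell by 0.42 (SE 0.12, adjusted p = 0.0184) with cordycepin alone. In LPS-treated cells the change was -0.33 (adjusted p = 0.0622), and with the culture day as a block the adjusted p was 0.0126. The Bcl2l1 probe at base 674, at 7.72 to 8.53 on all arrays, gave 0.056 (95% interval -0.32 to 0.43) and -0.14 (95% interval -0.51 to 0.23) in these comparisons.

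Bcl2l11 encodes Bim, a BH3-only protein that binds the survival proteins above, and its transcripts are spliced into variants with and without the BH3 domain. The 2 probes are printed because they read different variants and went apart under cordycepin. Each is 60 bases and crosses a splice junction, since it spans 11096 bases (chr2:127972893-127983988) and 682 bases (chr2:127954736-127955417) of mm9 on the plus strand. The files assign the probe at base 682 to 3 RefSeq transcripts, NM_207680, NM_207681 and NM_009754, and that at base 450 to NM_001284410.
Bcl2l11 at base 682: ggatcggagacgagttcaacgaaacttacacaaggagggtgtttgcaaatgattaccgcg
Bcl2l11 at base 450: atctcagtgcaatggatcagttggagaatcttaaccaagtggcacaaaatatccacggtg

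The Bcl2l11 probe at base 682 rose strongly with LPS and much less so where cordycepin was present. It read 7.25, 7.42, 7.37 and 7.47 in DMSO and 9.32, 9.19, 9.48 and 9.68 in LPS+DMSO, a change of 2.04 (SE 0.17, adjusted p = 5.80e-07). With cordycepin it read 6.85, 6.53, 6.98 and 6.90 without LPS and 7.73, 7.24, 7.46 and 8.17 with LPS. All LPS+cordycepin arrays were at least 1 log2 unit below the lowest LPS+DMSO array, and those of replicates 2 and 3 were no higher than the highest DMSO array. Cordycepin changed the level by -0.56 (SE 0.17, adjusted p = 0.0340) without LPS and -1.77 (SE 0.17, adjusted p = 1.51e-06) with LPS, and the latter was -1.77 and -1.76 within the 2 slides. In cordycepin the LPS rise at this probe came to 0.84 (adjusted p = 0.00497).

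The probe for the other variant, at base 450, was dimmer and noisier. It read 5.13, 4.12, 5.23 and 5.54 in DMSO, where 2 of 4 arrays were well above background, and 5.17, 4.88, 5.82 and 5.14 in cordycepin, where 1 of 4 was. With LPS it read 6.90, 6.85, 7.22 and 8.07 in DMSO and 6.87, 8.08, 7.72 and 6.74 in cordycepin, well above background on all arrays. LPS arrays stood above arrays without LPS in both settings, and the LPS+DMSO and LPS+cordycepin arrays overlapped fully. The LPS change was 2.25 in DMSO (SE 0.36, adjusted p = 0.000446) and 2.10 in cordycepin (adjusted p = 0.00135). These passed the filter on dim probes through the LPS groups, and with the normexp background they were 0.81 (adjusted p = 0.0620) and 0.92 (adjusted p = 0.0571). The change with cordycepin in LPS-treated cells was 0.093, with a wide interval of -0.68 to 0.87, and its sign differed between slides (0.60 and -0.41).

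Bid, the BH3-only protein that caspase-8 cleaves, went down in small steps. Its probe (NM_007544, chr6:120843464-120843523) read 13.79, 13.59, 13.65 and 13.70 in DMSO, 13.45, 13.25, 13.46 and 13.24 in cordycepin, and 13.57, 13.33, 13.25 and 13.52 in LPS+DMSO. In LPS+cordycepin it read 12.93, 12.81, 12.99 and 12.79, below all arrays of the other conditions. With cordycepin the level changed by -0.33 (SE 0.09, adjusted p = 0.0228) without LPS and -0.54 (SE 0.09, adjusted p = 0.000539) with LPS. LPS in cordycepin-treated cells gave -0.47 (adjusted p = 0.00442), the only call downward with LPS, where 4.50% of all probes fell. In DMSO the LPS change was -0.27 (adjusted p = 0.0732).

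Of the inhibitor of apoptosis genes among the 10, Birc2, Birc3 and Xiap, only Birc3 was called in any comparison. Birc3 (c-IAP2) has 2 probes on mm9 chromosome 9, at base 1659 (NM_007464, chr9:7854409-7854468) and base 2559 (BC011338, chr9:7856162-7856221). The probe at base 1659 read 7.81, 7.90, 7.56 and 7.17 in DMSO, 9.22, 9.42, 9.05 and 9.40 in LPS+DMSO, 8.07, 7.54, 7.77 and 7.46 in cordycepin, and 8.75, 9.43, 9.04 and 9.04 in LPS+cordycepin. Its LPS arrays lay above its arrays without LPS, and cordycepin arrays overlapped their vehicle arrays in both settings. LPS raised it by 1.66 in DMSO (SE 0.18, adjusted p = 1.06e-05) and by 1.36 in cordycepin (adjusted p = 0.000125). The change with cordycepin in LPS-treated cells was -0.20 (95% interval -0.59 to 0.18, adjusted p = 0.536).

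The Birc3 probe at base 2559 was dim, well above background on 2 of the 4 DMSO arrays and on all other arrays. It ranged from 5.90 to 6.26 in DMSO, 6.02 to 6.90 in cordycepin, 7.28 to 7.64 in LPS+DMSO and 7.45 to 8.16 in LPS+cordycepin. LPS raised it by 1.36 (adjusted p = 9.62e-05) in DMSO and by 1.40 (adjusted p = 0.000116) in cordycepin, and with the normexp background by 0.55 (adjusted p = 0.180) and 0.83 (adjusted p = 0.0589). Cordycepin gave 0.46 in LPS-treated cells (95% interval 0.06 to 0.85, adjusted p = 0.108). Birc2 (c-IAP1, NM_007465, chr9:7818688-7818747) stayed between 8.06 and 8.65 on all arrays, and its LPS change was -0.04 (95% interval -0.29 to 0.20). Xiap, a direct inhibitor of caspases (NM_009688, chrX:39462720-39462779), read 11.78 to 12.23 on 15 arrays and 11.54 in LPS+cordycepin replicate 3, with no call.

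Cflar encodes a catalytically inactive relative of caspase-8, and its 4 probes gave 3 patterns. The probes at bases 2300 and 1844 of NM_207653 (chr1:58811116-58811175 and chr1:58810660-58810719, plus strand) moved alike. At base 2300 the arrays read 9.78, 10.19, 9.72 and 9.56 in DMSO, 11.98, 12.03, 11.93 and 12.00 in LPS+DMSO, 9.72, 9.53, 9.91 and 9.91 in cordycepin, and 10.98, 11.37, 11.35 and 11.57 in LPS+cordycepin. LPS+cordycepin arrays lay below LPS+DMSO arrays and above all arrays without LPS. LPS raised these probes by 2.17 (SE 0.14, adjusted p = 4.51e-08) and 2.35 (SE 0.19, adjusted p = 4.11e-07). The change with cordycepin was -0.043 and -0.033 without LPS, and -0.67 (adjusted p = 0.00278) and -0.72 (adjusted p = 0.0122) with LPS. Without replicate 1 the latter was -0.52 (adjusted p = 0.146), since LPS+cordycepin replicate 1 was the lowest at 9.21.

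The Cflar probe at base 1940 of another variant, NM_009805 (chr1:58789994-58790053), rose less with LPS and fell with cordycepin in both settings. It read 9.93, 9.74, 9.94 and 9.72 in DMSO, 9.53, 9.38, 9.32 and 9.31 in cordycepin, 11.05, 11.25, 11.10 and 11.21 in LPS+DMSO, and 10.26, 10.28, 10.20 and 9.82 in LPS+cordycepin. Cordycepin arrays did not overlap their vehicle arrays. LPS gave 1.32 (SE 0.11, adjusted p = 4.71e-07), and cordycepin gave -0.45 (adjusted p = 0.00782) without LPS and -1.01 (SE 0.11, adjusted p = 4.06e-06) with LPS. The latter stood at the 2-fold mark, and was under it without LPS+cordycepin replicate 4, the lowest array, or without LPS+DMSO replicate 2 or 4. The probe at base 491 of ENSMUST00000149874 (chr1:58770546-58770605) was not called in any comparison, and its LPS change was -0.28 (95% interval -0.60 to 0.03, adjusted p = 0.249).

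Gadd45b (NM_008655, chr10:80394367-80394426), which acts on the kinase pathways of p38 and JNK, rose with LPS in both settings. It read 11.01, 10.59, 10.59 and 10.86 in DMSO, 10.85, 10.78, 10.79 and 10.57 in cordycepin, 12.79, 12.76, 12.86 and 13.18 in LPS+DMSO, and 12.37, 12.62, 12.74 and 12.85 in LPS+cordycepin. Cordycepin and vehicle arrays overlapped in both settings. The LPS change was 2.13 (SE 0.13, adjusted p = 2.34e-08) in DMSO and 1.90 (SE 0.13, adjusted p = 1.44e-07) in cordycepin. Cordycepin gave -0.013 without LPS and -0.25 (95% interval -0.53 to 0.03, adjusted p = 0.236) with LPS.

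In cordycepin-treated cells LPS still raised 10 probes of the same 5 genes, 7 of them at least 2-fold, where 3.38% and 1.64% of all probes rose. Both counts include Bcl2l11 at base 450, which passed the filter on dim probes only through the LPS conditions. The share of all probes was not recounted for this comparison without such probes. With the normexp background 8 probes rose, 4 of them at least 2-fold. With spike-in scaling 2 were called, Bcl2l11 at base 450 and Gadd45b. The median LPS change of the 17 probes was 0.79 in cordycepin and 1.32 in DMSO, and both comparisons have their own controls. Whether the LPS response differed was tested by the interaction, the LPS response with cordycepin minus the response without it. Only Bcl2l11 at base 682 was called, at -1.21 (SE 0.24, adjusted p = 0.0373), where 0.148% of all probes were called lower. Its response was smaller in cordycepin on 4 of 4 culture days, with differences of -0.94 to -1.63, and of -1.13 and -1.29 within the slides. This call was lost without any 1 culture day (adjusted p from 0.0672 to 0.543) and without 12 of the 16 single arrays (adjusted p from 0.0520 to 0.0981). It was also lost with spike-in scaling, at -1.42, and with the normexp background, at -0.91. The call was kept without cordycepin replicate 2, LPS+DMSO replicate 2, or LPS+cordycepin replicate 2 or 4.

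The other 9 probes that LPS raised had interactions between -0.78 and 0.04, none called. For Mcl1 at base 1928 the interaction was -0.78 (95% interval -1.35 to -0.21, adjusted p = 0.330), with a smaller response in cordycepin on 4 of 4 days. Mcl1 at base 3240 gave -0.52 (adjusted p = 0.248) and Cflar at base 1940 gave -0.56 (adjusted p = 0.154), each also smaller on 4 of 4 days. Those intervals do not include 0, but over 21597 probes these values did not pass the adjustment. For Gadd45b the interaction was -0.24 (95% interval -0.64 to 0.16), and for Birc3 at base 1659 it was -0.30 (95% interval -0.85 to 0.24).

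**Figure D3:**
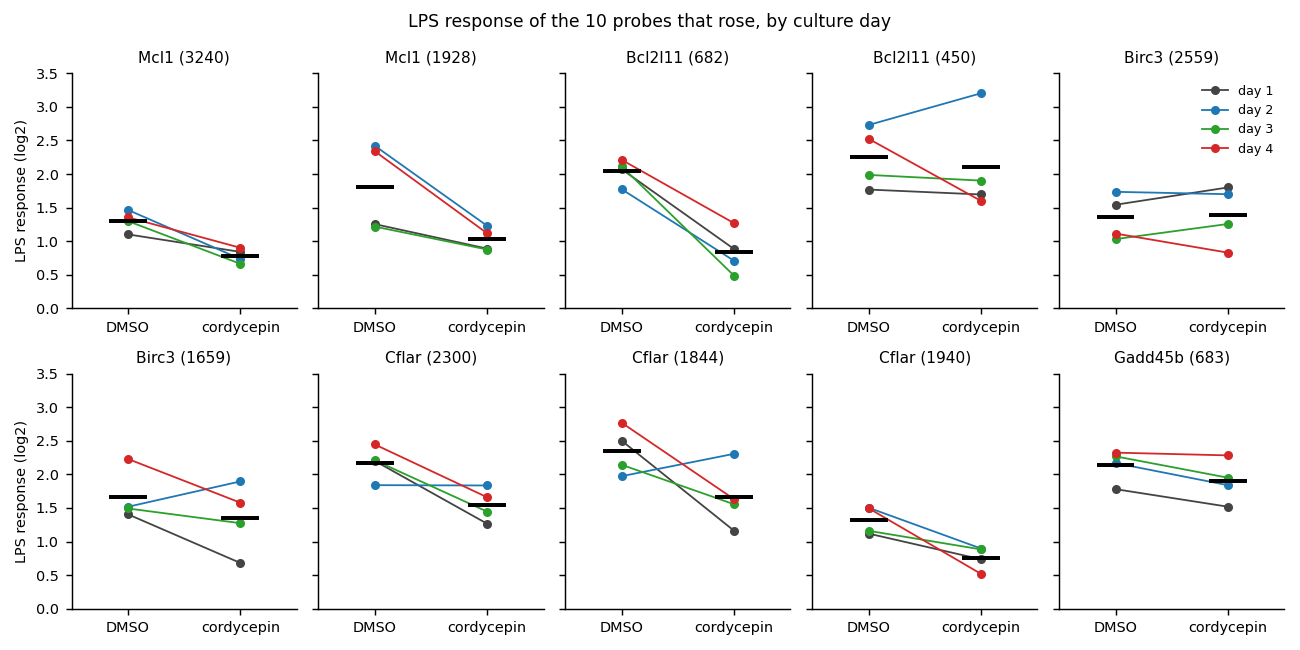
LPS response (vertical axis, log2 signal with LPS less that without LPS of the same replicate number) in DMSO and in cordycepin (horizontal axis) for the 10 probes that LPS raised at least 2-fold. Lines join the values of 1 culture day and black bars are means over 4 days. Bcl2l11 at base 682 went from 2.04 to 0.84 and fell on each day, while the Bcl2l11 probe at base 450 went from 2.25 to 2.10 and rose on day 2.

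Probes of the same gene were set against each other on each array, so that an equal shift of all log2 values of an array cancels. Effects of background or intensity need not cancel between a bright and a dim probe, such as Bcl2l11 at bases 682 and 450. Over the 10 pairs of probes and 3 comparisons there were 30 exact two-sided permutation tests. In 11 of them the groups did not overlap, which gives the smallest p that 4 against 4 arrays allow, 0.0286, and an adjusted p of 0.078, so none passed. Over all 8121 pairs of tested probes that share a gene name, the groups did not overlap in 13.0% of such comparisons. Of the 11, 6 were pairs among the 4 Cflar probes, which are not independent of each other. The change of Mcl1 at base 1928 with cordycepin less that at base 3240 was -1.44 without LPS and -1.70 with LPS, with no overlap of arrays. The 2 Bcl2l11 probes went apart by 1.86 with cordycepin in LPS-treated cells. The LPS change of Cflar at base 491 less that of the other Cflar probes was -1.60 to -2.63.

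**Figure D4:**
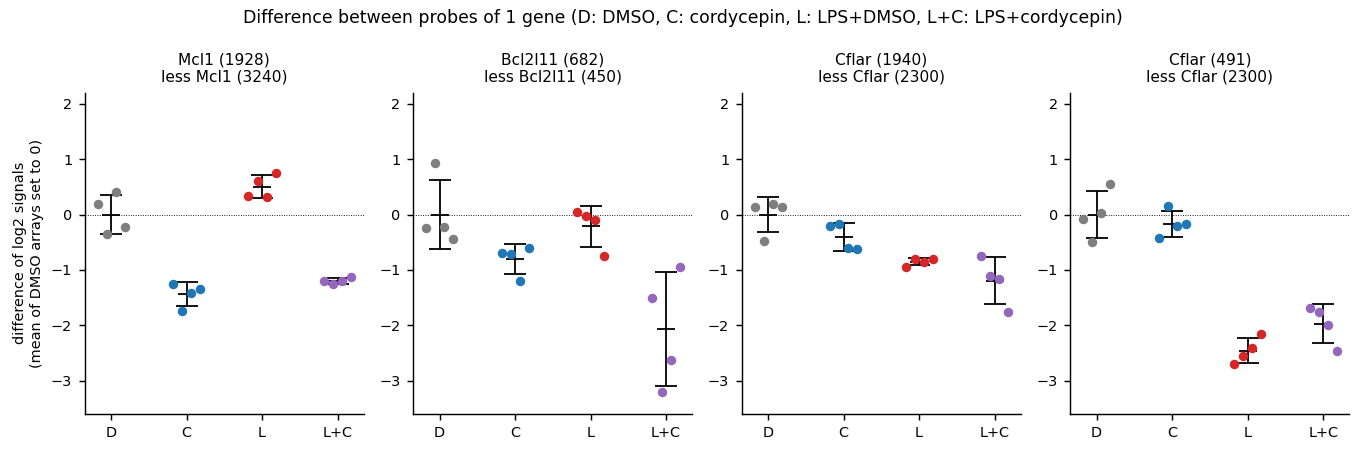
Difference between the log2 signals of 2 probes of the same gene (vertical axis, mean of the DMSO arrays set to 0) on the 4 arrays of each condition (horizontal axis). Points are arrays and bars are the mean ± SD. The Mcl1 difference dropped in cordycepin and LPS+cordycepin on all 8 arrays, and the mean Bcl2l11 difference was lowest in LPS+cordycepin, where 1 array lay within the range of cordycepin alone.

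Other genes of the apoptosis machinery moved both ways with LPS. A list of 44 such genes had 46 tested probes for 37 genes. With LPS 7 probes rose (15.2%, against 5.03% of all probes) and 8 fell (17.4%, against 9.39%). At least 2-fold, 2 rose and 1 fell, where 2.15% and 2.71% of all probes did. Cordycepin alone raised 2 (4.3%, against 9.71% of all probes) and lowered 7 (15.2%, against 7.05%), 1 of them 2-fold. In LPS-treated cells it raised 3 (6.5%, against 12.0% of all probes) and lowered 7 (15.2%, against 8.18%). Of these, 1 and 2 changed 2-fold, where 7.11% and 1.61% of all probes did. LPS in cordycepin raised 4 (8.7%, against 3.38% of all probes) and lowered 4 (8.7%, against 4.50%). Of these, 3 and 1 changed 2-fold, where 1.64% and 1.35% of all probes did. The median over the list differed from that of all probes by under 0.05 in each comparison.

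The 2-fold changes of the list were of death receptor complex genes, apart from the BH3-only gene Bmf. Traf1, an adaptor that binds Birc2 and Birc3, rose by 5.15 with LPS (adjusted p = 2.08e-10) and fell by 2.52 with cordycepin in LPS-treated cells (adjusted p = 3.42e-07). Tnfaip3, the NF-κB inhibitor A20, rose by 5.24 with LPS (adjusted p = 1.18e-12) and fell by 0.94 with cordycepin in LPS-treated cells (adjusted p = 8.31e-05). In cordycepin LPS still raised Traf1 by 3.46 and Tnfaip3 by 4.05 (adjusted p = 3.23e-08 and 4.17e-11). Both responses were smaller than in DMSO, with interactions of -1.70 (adjusted p = 0.0151) and -1.20 (adjusted p = 0.0110). Traf2 fell by 1.42 with cordycepin alone (adjusted p = 1.77e-07) and by 1.61 in LPS-treated cells (adjusted p = 3.22e-08) at 1 probe, while a dimmer Traf2 probe gave -0.019 and 1.48 without a call. Tnfrsf10b, a death receptor for TRAIL, rose by 1.14 with cordycepin in LPS-treated cells (adjusted p = 9.01e-08).

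Among BH3-only genes Bmf went against Bcl2l11, falling by 2.14 with LPS in DMSO (adjusted p = 1.17e-06) and by 1.49 in cordycepin (adjusted p = 8.40e-05). Bbc3 went the same way as Bcl2l11 with LPS in DMSO, rising by 0.63 (adjusted p = 0.0203). Pmaip1 gave 0.60 there (adjusted p = 0.0867), not called. None of 13 probes for the apoptosome and caspases was called with cordycepin in either setting, where 16.8% and 20.2% of all probes were called. With LPS 2 of the 13 fell in DMSO and 2 in cordycepin, none 2-fold, where 9.39% and 4.50% of all probes fell. Of 3 tested survival relatives of Bcl2, named after their values were seen, 2 changed with LPS. Bcl2a1c and Bcl2a1d rose by 0.77 and 0.52 with LPS (adjusted p = 0.00260 and 0.000932) and fell by 0.70 and 0.58 with cordycepin in LPS-treated cells (adjusted p = 0.00308 and 0.000177). Their LPS changes in cordycepin were 0.019 and -0.021, not called. The interactions, which test whether the LPS response differed, were -0.75 and -0.54 (adjusted p = 0.193 and 0.0955), also not called. Bcl2l2 gave -0.23 with LPS and 0.083 with cordycepin in LPS-treated cells, neither called, and fell by 0.33 with cordycepin alone (adjusted p = 0.0469). Bcl2a1c and Bcl2a1d belong to a group of near-identical genes, so that their probes may share RNA.

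**Figure D5:**
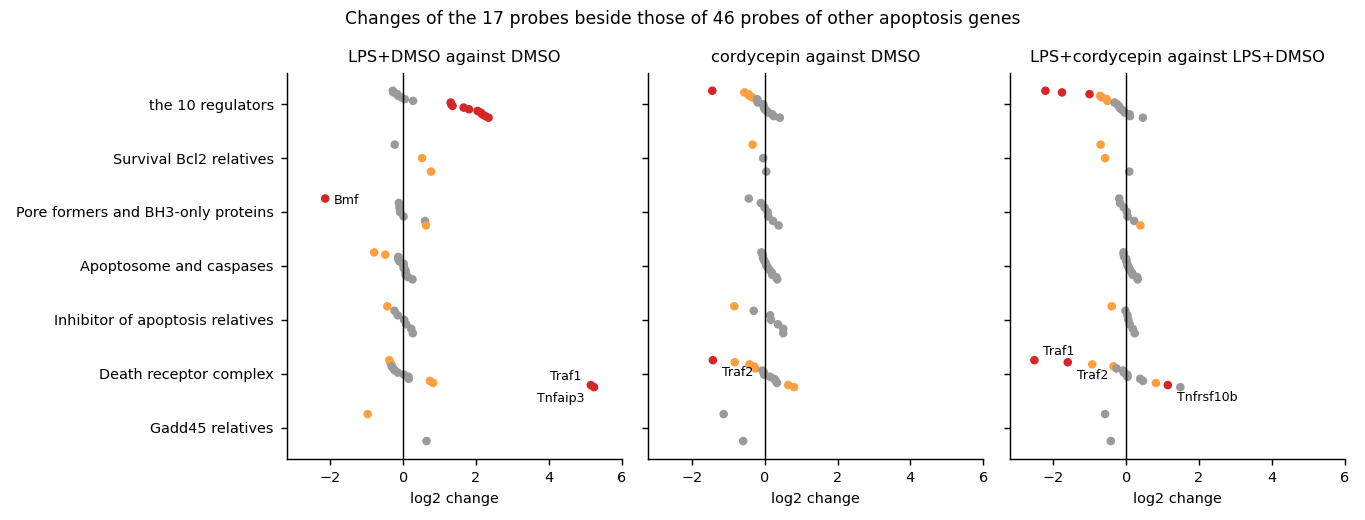
Log2 change (horizontal axis) of the 17 probes of the 10 regulators (top row) and of 46 probes of other apoptosis genes grouped by role (other rows), in 3 comparisons, with probes sorted by their change within a row. Colours are as in the plot of changes with intervals, and list genes that changed at least 2-fold are named. Traf1 and Tnfaip3 rose by more than 5 with LPS, and Bmf fell by 2.14.

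The start of Mcl1 is shown because it holds a match to NF-κB-like letters close to the transcript start. The table of RefSeq promoters (GRCm38.p6, 250 bases before to 50 after each start) held 16 starts for the 10 genes. GGGNNNTTCC, on either strand, occurred at 2 of the 16, once for Mcl1 and once for Bcl2l1, and in 5.6% of 32851 promoters. Those 32851 leave out a chromosome on which none of the 10 genes lies. Bcl2l1 did not rise with LPS, and no match was found at the starts of Bcl2l11, Birc3, Cflar and Gadd45b in this window. The AP-1-like letters TGANTCA occurred at none of the 16 and in 7.8% of the 32851. The 100 bases before the Mcl1 start (GRCm38.p6 chr3:95658621-95658720, plus strand) are given with the match, on the minus strand, in capitals.
Mcl1 upstream: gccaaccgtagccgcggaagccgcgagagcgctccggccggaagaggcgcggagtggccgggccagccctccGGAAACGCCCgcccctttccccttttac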

How the data were processed

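RNA of 16 wells of RAW 264.7 cells was labelled with Cy3 by the authors in a kit that copies RNA from its poly(A) tail, and hybridised to Agilent 1-colour mouse arrays. Whether tail length bears on the values was not tested. The scanner files deposited by the authors hold a processed intensity for each spot, which Agilent Feature Extraction 10.10.1.1 (per the submitters' processing notes) background-subtracted without normalization between arrays. The value table that the authors deposited holds log2 values of 25775 spots with column medians of 9.553 to 9.577. Its method is not given in the sources used here, it correlated by 0.995 to 0.998 with the log2 scanner values over spots, and it served as an alternative. Conditions, doses and replicate numbers came from the labels.

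Log2 intensities without outlier spots were averaged per probe and scaled to the 75th percentile of each array taken from the 18064 probes that every array measured well above background, with the mean percentile added back. A probe was tested if some condition had it well above background on 4 of 4 arrays (21597 probes). Means of the 4 conditions were fitted with limma 3.58.1 in R 4.3.3, with Benjamini-Hochberg adjustment of p across these probes. A probe was called at an adjusted p under 0.05, with at least 2-fold change where stated. Intervals are 95% and not adjusted. Tested on simulated data with 200 changed probes among 21597, for LPS+DMSO against DMSO, 86 of 100 probes changed by 1.5 on the log2 scale and 98 of 100 changed by 2.5 were recovered, with 4 false calls. The simulated noise was independent between arrays, without deviations shared by day or slide, so these figures check the fit and may not hold for the real arrays. The number of arrays limits the precision. Replicates of a condition correlated by 0.9775 to 0.9958.

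The 10 genes, the list of 44 apoptosis genes and the marker lists were chosen with earlier results of these data known. All 17 probes are named, and of the list those changed at least 2-fold with the same direction in 4 of 4 replicates, up to 3 per role and comparison. The tested survival relatives of Bcl2, Bbc3 and Pmaip1 were named outside that rule, after their values were seen. Per the labels a replicate number is a culture day, shared by the 4 conditions. Deviations from the condition means correlated by a mean of 0.19 between arrays of the same number (-0.073 to 0.423, 20 of 24 over 0.1), 0.17 between other numbers on the same slide and -0.18 between slides, so the day was tried as a block. Accessions of 15 of the 17 probes were in the RefSeq table, with the same symbol. Probes are placed on mm9, as in the files, and promoters are from RefSeq on GRCm38.p6. Python 3.11.15 with pandas 2.3.3, numpy 2.4.6, scipy 1.17.1 and matplotlib 3.10.9 handled tables and figures. Alternatives were other scalings, backgrounds, filters, tests, blocks and probe summaries, each array or day left out, and each slide alone.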

Additional observations from a re-analysis of the deposited data

Results flagged for a closer look

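In 5 of the 68 sets of 4 replicate arrays (7.4%) 1 array lay far from the other 3 by Dixon's test, where chance flags about 1 in 20. Cflar at base 491 read 10.37 in DMSO replicate 4 (others 9.96 to 10.01) and 9.57 in cordycepin replicate 1 (others 9.95 to 10.01). Cflar at base 1844 read 9.21 in LPS+cordycepin replicate 1 (others 9.81 to 9.91), and Cflar at base 1940 read 9.82 in LPS+cordycepin replicate 4 (others 10.20 to 10.28). Xiap read 11.54 in LPS+cordycepin replicate 3 (others 12.20 to 12.23).

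The LPS response of Bcl2l11 at base 682 was called smaller in cordycepin than in DMSO, with an interaction of -1.21 (limma, adjusted p = 0.0373). No other interaction was called among the 17 probes. The call was lost without any single culture day and without 12 of the 16 single arrays. It was also lost with spike-in scaling, at -1.42, and with the normexp background, at -0.91. The other Bcl2l11 probe gave an interaction of -0.15, not called.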

How the results depend on the processing

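Over the alternatives that kept all arrays or took each slide alone, 73 of 93 counts of called probes stayed within 1.5 times, and no called probe changed direction. With no minimum fold the counts were 5 for cordycepin against DMSO, 7 for LPS+cordycepin against LPS+DMSO and 11 for LPS+cordycepin against cordycepin. With the brightest probe of each gene, out of 10 genes, they were 5 with LPS, 0 with cordycepin, 1 with cordycepin in LPS and 3 with LPS in cordycepin, and the mean of a gene's probes gave 5, 0, 1 and 3. The interaction had 0 calls with the mean of probes, spike-in scaling, normexp background, no filter on dim probes, an adjusted p under 0.01, and within slide 1 or slide 2. LPS in cordycepin gave 2 with spike-in scaling and 4 with normexp. At any fold spike-in scaling called 7, 1, 3, 2 and 0 probes in the 5 comparisons. Spike-in scaling moved the median of all probes to -0.13, 0.11, -0.12 and -0.36 in these comparisons and -0.21 in the interaction. The cause was not tested.

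With the replicate number as a block the counts stayed at 10, 1, 3, 7 and 1, and Bcl2l1 at base 2311 in LPS-treated cells was the only member call gained at any fold (adjusted p = 0.0126). Leaving out an array or a day gave 10 to 10, 1 to 1, 2 to 3, 6 to 7 and, for the interaction, 0 to 1. The methods' t-test, unadjusted and after Benjamini-Hochberg, called 11 and 10 probes with LPS, 6 and 5 with cordycepin, 9 and 7 with cordycepin in LPS, and 11 and 10 with LPS in cordycepin. It and the fit of only the groups compared were not run for the interaction. Depth is unknown for arrays, and signal near background limits Bcl2l11 at base 450 and Birc3 at base 2559.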
